A study of Mus musculus with 6 samples.

Results

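The genes described here encode the machinery that brings proteins into mitochondria, the proteases and chaperone that keep them in order, and the GTPases that fuse and divide the organelle, read in whole hearts of mice that lack estrogen-related receptor alpha (ERRα, the orphan nuclear receptor encoded by Esrra) and in wild-type hearts. Members were all genes on the array with 1 symbol in the platform table that starts with Timm or Tomm and a digit, together with Grpel1, Trap1, Clpp, Lonp1, Afg3l2, Yme1l1, Phb2, Opa1, Mfn1, Mfn2, Dnm1l and Fis1. That gave 35 of 18193 named genes, measured by 80 probe sets. Phb, Tomm5 and Tomm6 are named only together with a second gene on their probe sets and were left out. For every gene the probe set with the highest mean log2 signal over the 6 arrays was taken, and 33 of the 35 passed the filter on dim probe sets. The 2 that did not, Tomm20l and Timm8a2, stayed at a signal of 15.2 or less and 8 or less in every heart, and no call was drawn for them.

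Hearts came from 3 wild-type (WT) and 3 ERRα-null (KO) mice, all male and under basal conditions, each on its own Affymetrix Mouse430_2 array. The labels give the strain C57BL/6J and an age of 2 to 3 months for 5 of them. For WT 1 they give no strain or age, its title names the heart, and its array header numbers it differently from that title. The labels do not describe how the null allele was made, and it is not said to be limited to one cell type. Myocyte markers were high in every heart, with a summed signal over 9 genes of 64266 to 73331. Esrra itself read 368.1, 394.4 and 349.1 in the hearts WT 1 to 3, and 180.1, 24 and 18 in those labelled KO 1 to 3. The library labelled KO 1 therefore goes against its label, and the calls of members, of the wider list and of the cell type markers are also given without it. WT 1 was the brightest array, with a median signal of 16 against 12.4 to 13.7 in the other hearts.

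Nearly all mitochondrial proteins are made in the cytosol and imported. The outer membrane translocase (TOM) receives them, the presequence translocase (TIM23) and its motor pull matrix proteins through the inner membrane, and the carrier translocase (TIM22), fed by small Tim chaperones of the intermembrane space, inserts carriers such as the ATP/ADP exchanger. Matrix and inner membrane proteases remove damaged proteins, and mitofusins, Opa1 and Dnm1l set the balance of fusion and fission. In the heart, where mitochondria fill much of the myocyte, ERRα is known as a regulator of genes for oxidative metabolism. It binds an extended half-site, TNAAGGTCA.

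The promoters of 3 members are shown because Timm29 was the member that passed the test, Timm22 encodes the channel of the same complex, and Timm8b held the extended half-site. Each line gives the 250 bases before an annotated start, from RefSeq on GRCm38.p6, at chr9:21592472-21592721 for Timm29, chr11:76406675-76406924 for Timm22 and chr9:50603651-50603900 for Timm8b, all on the plus strand. Capitals mark matches on either strand to TNAAGGTCA, its core AAGGTCA, the ETS-like CCGGAAG and the NRF1-like GCGCNNGCG. Timm22 has a second annotated start. The 250 bases before that start (chr11:76406893-76407142) are not printed and held no match.
Timm29: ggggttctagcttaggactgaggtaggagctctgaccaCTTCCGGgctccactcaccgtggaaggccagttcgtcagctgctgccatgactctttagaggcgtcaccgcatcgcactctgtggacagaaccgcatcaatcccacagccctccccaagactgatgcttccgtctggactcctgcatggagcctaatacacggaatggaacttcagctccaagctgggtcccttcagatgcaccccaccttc
Timm22: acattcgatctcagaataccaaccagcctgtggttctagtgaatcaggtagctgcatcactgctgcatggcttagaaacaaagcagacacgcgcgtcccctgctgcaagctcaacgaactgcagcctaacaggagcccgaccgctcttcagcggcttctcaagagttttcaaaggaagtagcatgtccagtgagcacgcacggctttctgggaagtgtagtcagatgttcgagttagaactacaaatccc
Timm8b: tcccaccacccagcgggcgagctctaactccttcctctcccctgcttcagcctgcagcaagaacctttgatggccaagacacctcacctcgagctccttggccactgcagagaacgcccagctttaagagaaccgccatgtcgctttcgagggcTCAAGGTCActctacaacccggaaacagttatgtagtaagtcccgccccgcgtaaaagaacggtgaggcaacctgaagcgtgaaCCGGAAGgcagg
Windows of 300 bases, from 250 before to 50 after the start, were searched for 31 of the 35 members (37 windows). TNAAGGTCA was found in 1 of the 37 windows (2.7%), that of Timm8b at position -96, against 0.852% of 13375 windows of tested genes and 1.28% of all 32851. The core AAGGTCA, which every extended site includes, was in 4 windows, those of Timm44, Timm8b, Timm23 and Trap1 (10.8% against 3.32% of the windows of tested genes). CCGGAAG was in 18 windows (48.6% against 15.6%), among them those of Timm29 and Mfn1, and GCGCNNGCG, whose matches on both strands can overlap, in 7 (18.9% against 22.3%). These are matches of letters, not measured sites.

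The comparison of KO with WT hearts asked which of these transcripts differ when the receptor is missing. Timm29, a subunit that stabilises the TIM22 complex, fell to 61.5% of the WT mean, and no other member passed the test. Timm22, the channel of that complex, was at 65.9% of WT without passing, while 4 of the 6 small Tim chaperones tested had positive differences. Of the 33 tested members 24 (72.7%) had negative differences, against 55.0% of all genes tested, and these included every tested TOM and TIM23 member except Tomm20 and Timm17b. Log2 of signal plus 16 was compared with limma over 12946 genes, with Benjamini-Hochberg adjustment over all of them and a threshold of 0.05. Of the 33 members tested, 1 was called lower and 0 higher, where 1.18% of all genes were called lower and 1.78% higher. At an unadjusted p under 0.05 there were 7 lower and 0 higher members, against 834 lower and 786 higher among all genes tested. The median log2 difference of the members was -0.15, with values from -0.65 to 0.25, and that of all genes was -0.028. All 3 KO libraries lay below all 3 WT hearts for 8 of 33 members, namely Timm29, Timm22, Timm50, Timm44, Grpel1, Phb2, Fis1 and Opa1, and above them for 0. Such separation was found in 9.41% of the 12946 genes in the lower direction and in 6.81% in the higher direction. The p-values measure the spread between these hearts, whose breeding and handling the labels do not describe. In whole tissue, fewer cells of a type and less RNA per cell cannot be told apart.

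**Figure D1:**
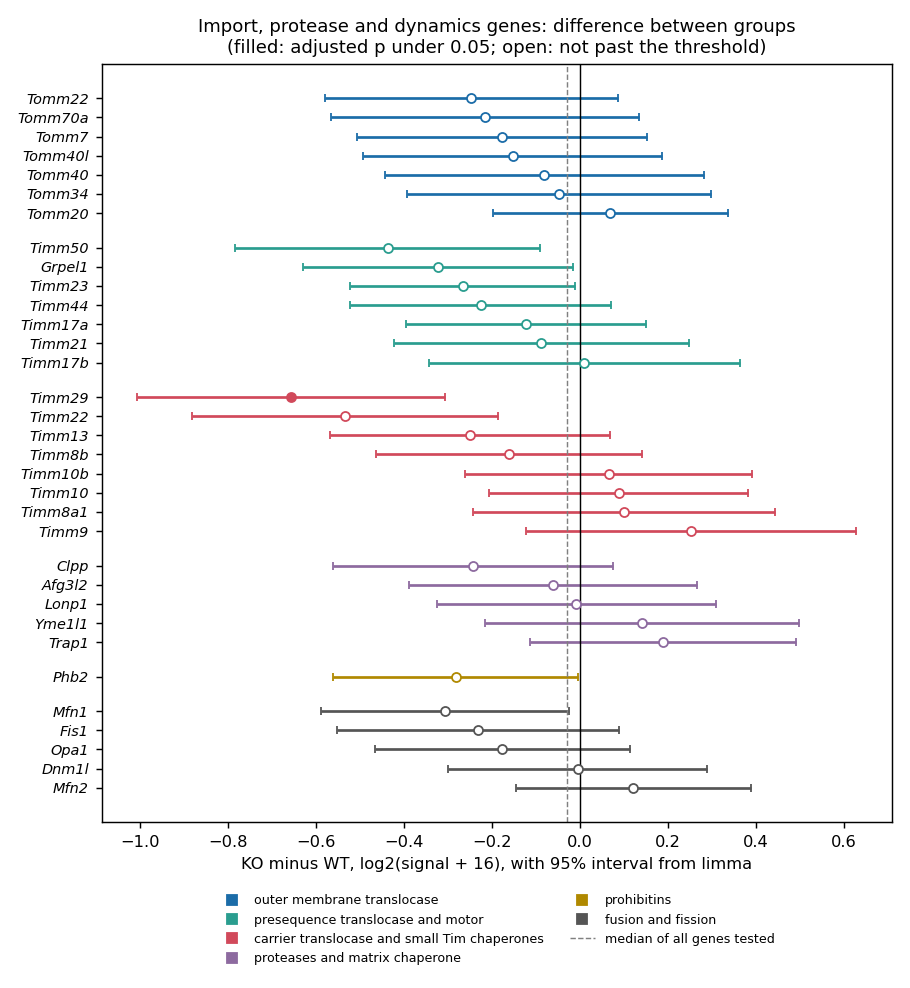
Difference between KO and WT in log2(signal + 16) for the 33 members tested, by sub-group, with 95% intervals from limma (3 hearts per group). Timm29, at -0.65, is the filled point past the adjusted threshold, and most other intervals include 0 (solid line); the dashed line is the median of all genes tested.

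The carrier translocase and its small Tim chaperones held both the lowest and the highest differences. Timm29 (chromosome 9, 21592722 to 21595970 on GRCm38.p6) read 398.3, 272.8 and 275.7 in the 3 WT hearts, in order, and 241.3, 167.2 and 173.7 in the 3 KO libraries. The groups did not overlap, and KO 1, the library with residual Esrra signal, was the highest of its group. Among the other members with separated groups, KO 1 was the highest KO library for Fis1 and Opa1. It was not the highest for Timm22, Timm50, Timm44, Grpel1 or Phb2, and a link to the Esrra signal was not tested. The mean Timm29 signal was 316 ± 71.6 in WT and 194 ± 41.0 in KO (SD, n = 3 each). On the log2 scale the difference was -0.65 with a standard error of 0.174 (limma adjusted p = 0.0218). A second, dimmer Timm29 probe set gave 163, 123.7 and 125.1 against 117.3, 92.3 and 102.1, again without overlap, at a log2 difference of -0.35. Without the library labelled KO 1 the difference of the brighter set was -0.81 (limma adjusted p = 0.0037). Without WT 1, the brightest array, it was -0.48 (limma adjusted p = 0.179) and did not pass, and it did not pass without KO 2 (-0.56, adjusted p = 0.176) or KO 3 (-0.59, adjusted p = 0.125). Esrra itself, at -2.59, did not pass without WT 1 either (limma adjusted p = 0.0675). Over the 17 alternatives the adjusted p of Timm29 ran from 0.0037 to 0.179.

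Markers of other cell types differed between the groups too. The atrial and adipocyte lists were chosen with earlier results of these data known, so their counts are a description and not a test. The 5 atrial myocyte markers were all called higher, with a summed signal of 1300 to 4456 in WT and 6158 to 9012 in KO, and the 4 measured adipocyte markers of 6 listed were all called higher, at 75.2 to 98.9 against 316.5 to 1817. Bmp10, an atrial marker, was at 5.7 to 33.1 in WT, and Cidec and Retn, adipocyte markers, were at 15.6 or less there. In KO 1 Cidec was at 11.6, within the WT range, and Retn was at 15.9, close to its 15.6 in WT 1. Of 6 fibroblast markers 1 was called higher (summed signal 5179 to 6218 against 6758 to 8259), and 0 of 9 myocyte and 0 of 5 endothelial markers passed. All 6 fibroblast markers had every KO library above every WT heart, with log2 differences of 0.27 to 0.49. That separation was found in 6.81% of all genes tested. Timm29 was at 398.3, 272.8 and 275.7 in WT 1 to 3, whose atrial sums were 1552, 1300 and 4456. It was at 241.3, 167.2 and 173.7 in KO 1 to 3, whose atrial sums were 9012, 8079 and 6158. Without the library labelled KO 1, a setting chosen for the markers after the data were seen, the 5 atrial and 4 adipocyte markers were again called higher, as was 1 fibroblast marker, Col3a1, and of 3 leukocyte markers tested 1 was called higher, Ptprc, against 0 with all hearts. The part of tissue content in the members' differences was not tested.

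Timm22 (chromosome 11, 76406925 to 76416313) gave 297.5, 198 and 201.2 in WT hearts, against 155, 139.9 and 164.4 in KO, so that every KO library was below every WT heart. The log2 difference was -0.53 (SE 0.173, limma adjusted p = 0.086). It did not pass, but passed with quantile normalization (-0.51, limma adjusted p = 0.022), with cyclic loess (-0.50, adjusted p = 0.0231) and with the stricter filter (adjusted p = 0.0444). Its dimmer probe set gave 16.5, 20.6 and 17.4 against 13.1, 16.4 and 12.1. Timm13, which carries hydrophobic precursors with Timm8a1, was at 457, 376.2 and 410.7 in WT hearts, against 383.8, 318.3 and 337.1 in KO, where KO 1 alone lay within the WT range. Timm8b, the member with the extended half-site before its start, was at 734.5, 566.9 and 595 against 582.5, 553.5 and 546.4, with overlap and a log2 difference of -0.16 (95% interval -0.46 to 0.14). The differences of Timm8a1, Timm9, Timm10 and Timm10b, the other small chaperones tested, were 0.10, 0.25, 0.089 and 0.066, and all had intervals that included 0. The dimmest of them, Timm9, gave 50.1, 32.5 and 31.7 against 39.5, 42.6 and 63.6.

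Ratios were also taken within each array, as differences of log2(signal + 16), after the values had been seen, and they are given as a description with no test. The mean log2 signal of Timm22 and Timm29 minus that of the 6 small Tim chaperones was 0.080, -0.10 and -0.13 in WT hearts, and -0.45, -0.73 and -0.80 in the KO libraries. The group means differed by -0.61, by -0.65 with a pseudocount of 4 and by -0.49 with a pseudocount of 64. Timm22 and Timm29 were put in the numerator because they had the lowest differences of the group, which fixes the direction of this ratio.

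**Figure D2:**
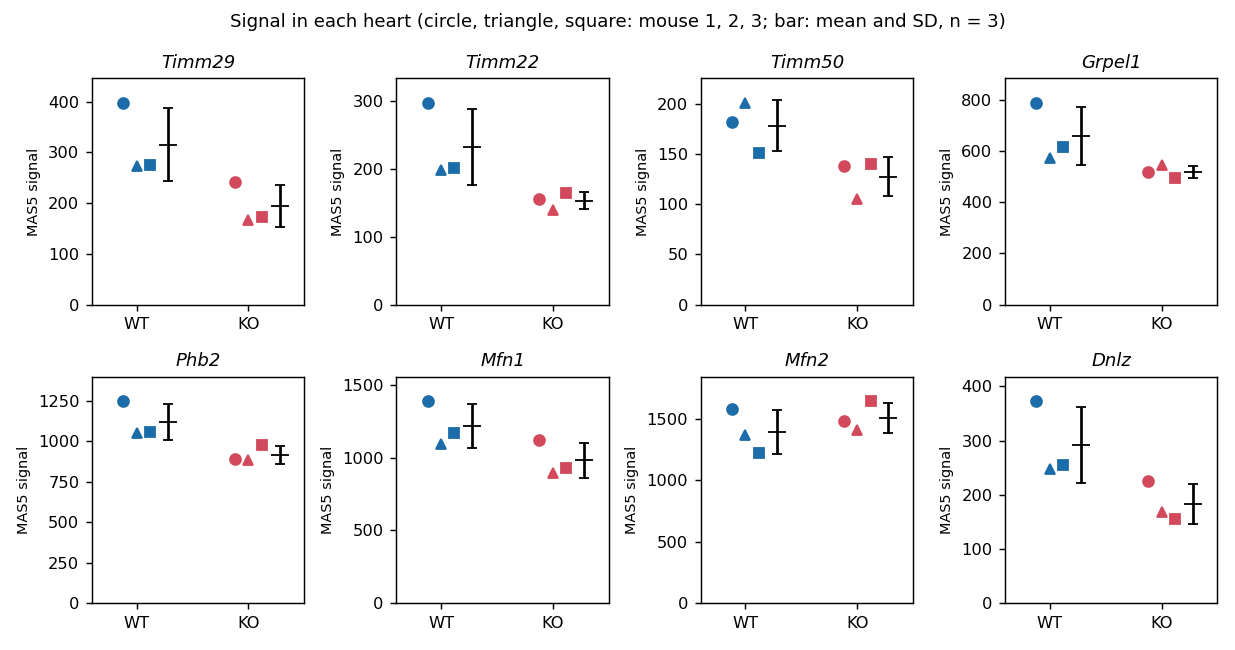
MAS5 signal on a linear axis from 0 in each heart for 7 members and Dnlz, with the mean and SD of each group (n = 3). Timm29, Timm22, Timm50, Grpel1, Phb2 and Dnlz show every KO library below every WT heart, whereas Mfn1 and Mfn2 overlap.

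Of the 7 presequence translocase and motor genes 0 passed, 6 had negative differences, and the median was -0.23. Timm50, the receptor that hands presequences to the channel, gave 182.2, 201.3 and 151 in WT hearts, against 138, 104.9 and 139.9 in KO. The groups did not overlap, the KO mean was 71.6% of WT and the log2 difference was -0.44 (SE 0.172, limma adjusted p = 0.209). Its second probe set above the filter overlapped between groups (-0.15). Grpel1, the nucleotide exchange factor of the motor's Hsp70, gave 790.1, 574 and 615.5 against 519.5, 544.4 and 496, without overlap (-0.32, adjusted p = 0.36 by limma). Timm44, which tethers the motor to the channel, was lower without overlap on all 3 of its probe sets, with log2 differences of -0.23, -0.40 and -0.46. The brightest set, which the rule used, gave 883.1, 677.6 and 709.7 against 638.6, 631.8 and 652.3 and had the smallest difference of them (limma adjusted p = 0.603).

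Timm23, the channel itself, gave 2528.2, 2040.5 and 1942.7 in WT hearts, against 1983.1, 1648.4 and 1755.4 in KO, where KO 1 lay above WT 3. Its log2 difference was -0.27 (limma adjusted p = 0.369). Timm17a, Timm17b and Timm21, channel partners, were at -0.12, 0.011 and -0.087, each with overlap. The sign of Timm17b turned in 3 of 17 alternatives and that of Timm21 in 1. The log2 ratio of Timm17a over Timm17b, paralogs that occupy the same place in the complex, differed by -0.13 between the group means and overlapped between groups.

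No outer membrane translocase gene passed, and none of the 7 tested had separated groups on its brightest probe set. The median was -0.15, with 6 of 7 negative. Tomm22, the central receptor that organises the complex, gave 524.9, 341.3 and 344.4 in WT hearts, against 342.9, 309.4 and 341.8 in KO, a log2 difference of -0.25 that shrank to -0.048 without WT 1. Tomm70a, the receptor for carriers, was at 359.3, 206.7 and 269.7 against 265.1, 221.5 and 213.1 (-0.21). Tomm20, the receptor for presequences, was at 1954, 1533.1 and 1549.8 against 1750.2, 1516.4 and 2025.5, with overlap and a difference of 0.070. It has 6 probe sets, and they disagreed. The dimmest gave 46.8, 47.5 and 53.6 against 31, 26.5 and 32.4 without overlap (-0.51), while the other 5 lay between -0.091 and 0.16. The channel gene Tomm40 and its paralog Tomm40l were at -0.080 and -0.15, and the small subunit Tomm7 at -0.18. Tomm34, a cytosolic cochaperone of import that was counted in this sub-group by its symbol, was at -0.046. Tomm40 ran from 177.3 in KO 1 to 288.8 in KO 3 and from 199 to 332.2 in WT hearts, and its sign turned without KO 1 (0.12) or without WT 1 (0.10).

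The 4 proteases and the matrix chaperone Trap1 had a median of -0.0076, and 0 passed. That median was 0.031 with quantile normalization and 0.0067 with median centring. Clpp, the peptidase of the matrix ClpXP protease, gave 529.3, 391.7 and 434.4 in WT hearts, against 404.3, 364.3 and 361.8 in KO (log2 difference -0.24), and its second probe set, at 303.1, 226.7 and 253.2 against 219.5, 205 and 201.4, did not overlap (-0.29). Trap1, the mitochondrial Hsp90, was at 762.5, 562.3 and 608.9 against 662.1, 722.9 and 816.4 (0.19). Lonp1, the matrix AAA protease, was at -0.0076 and changed sign in 7 of 16 alternatives. Afg3l2 and Yme1l1, the inner membrane AAA proteases that face the matrix and the intermembrane space, were at -0.061 and 0.14, both with overlap.

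Phb2, a prohibitin that forms ring scaffolds with the inner membrane proteases, gave 1250.2, 1050.9 and 1059.7 in WT hearts, against 888.6, 882.7 and 978.4 in KO. The groups did not overlap on this or on its next 2 probe sets, with log2 differences of -0.28, -0.36 and -0.28. Its remaining, dim set overlapped, at -0.10. It did not pass (SE 0.139, limma adjusted p = 0.388), and it passed with quantile normalization alone of the 17 alternatives (-0.26, adjusted p = 0.0495).

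Among the fusion and fission genes 0 of 5 passed, with a median of -0.18. Mfn1, an outer membrane mitofusin, gave 1392.4, 1094.5 and 1172.1 in WT hearts, against 1124.1, 899.3 and 927.1 in KO, where KO 1 lay above WT 2. The log2 difference was -0.31 (SE 0.140, limma adjusted p = 0.336), and the other 2 probe sets were at -0.21 and -0.41. Mfn2, its paralog and an endoplasmic reticulum tether, gave 1583.5, 1369.9 and 1225.5 against 1481.4, 1407.9 and 1648.5, a difference of 0.12 (95% interval -0.15 to 0.39). The log2 ratio of Mfn1 over Mfn2 was -0.18, -0.32 and -0.063 in WT hearts, and -0.39, -0.64 and -0.82 in the KO libraries. The group means differed by -0.43, and by -0.54 without the library labelled KO 1. This pair was also chosen after its values were seen.

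Opa1, the inner membrane fusion GTPase, gave 1045.8, 805.3 and 828.6 in WT hearts, against 794.3, 769.7 and 786.8 in KO. Its groups did not overlap, with WT 2 and KO 1 close to each other, and the log2 difference was -0.18. The other 2 Opa1 probe sets overlapped, at -0.19 and -0.16. Fis1, an outer membrane adaptor of fission, gave 358.5, 328.4 and 311.4 against 291.7, 262.9 and 288 without overlap (-0.23), but its dimmer probe set overlapped (-0.022). Dnm1l, the fission GTPase Drp1, was at -0.0047 (95% interval -0.30 to 0.29), with 799.6, 669.2 and 674.1 in WT hearts, against 724.7, 654.9 and 752.5 in KO. Its dimmest probe set above the filter gave 68, 57.9 and 69.7 against 75.1, 74.6 and 103, with every KO library above every WT heart (0.29), and was the 1 member probe set separated in that direction. The other set above the filter overlapped, at 0.0057. The ordering of fusion and fission genes by their differences has no test.

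**Figure D3:**
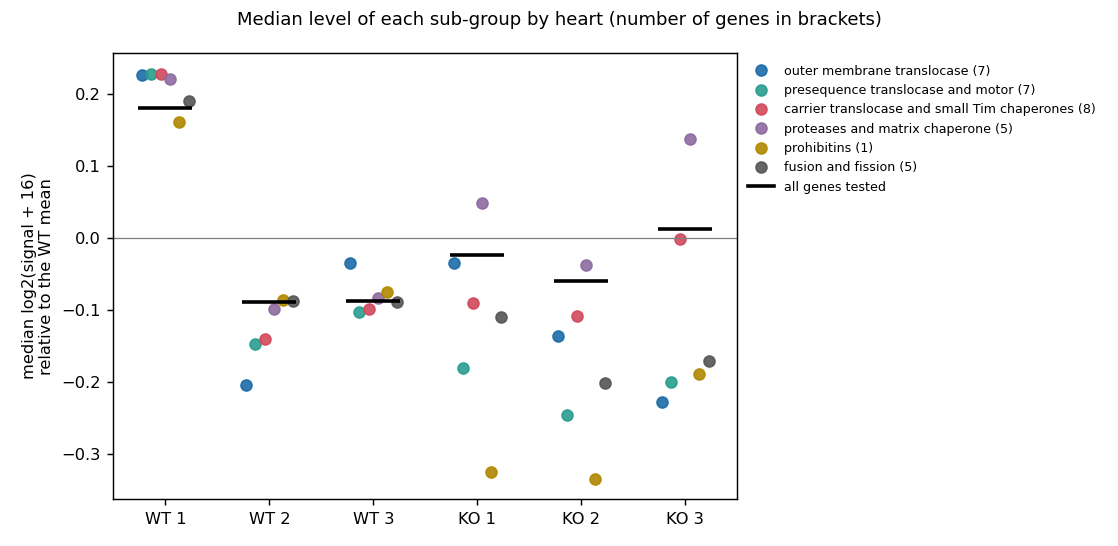
Median log2 level of each sub-group in each heart relative to the WT mean, with the median of all genes tested as a black bar. WT 1 is high for every sub-group (0.16 to 0.23) and for all genes (0.18). In all 3 KO libraries every sub-group except the proteases and matrix chaperone lies below the bar. Some sub-groups lie below it in WT hearts too. In WT 2 (bar at -0.088) these include the outer membrane (-0.20), presequence (-0.15) and carrier (-0.14) translocase groups.

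WT 1 stood apart from the other hearts in these medians. In WT 1 the median member stood 0.23 above the WT mean on the log2 scale and the median of all genes 0.18 above it. In WT 2 and WT 3 the median member was at -0.14 and -0.085, where all genes were at -0.088 and -0.087. In KO 1 to 3 the median member was at -0.11, -0.18 and -0.19, where all genes were at -0.023, -0.059 and 0.013. WT 2 thus lay below KO 1, and the groups overlapped on this scale. With quantile normalization the members were at 0.021, -0.030 and 0.016 in WT and at -0.069, -0.10 and -0.22 in KO. Without WT 1 all 33 members tested had more positive differences. Among those given above, Timm22 was then at -0.35, Grpel1 at -0.19, Timm23 at -0.15, Timm44 at -0.11, Tomm70a at -0.023, Clpp at -0.13, Timm8b at -0.050 and Opa1 at -0.059, while Trap1 was at 0.31 and Timm9 at 0.41. The median difference of the members was then -0.025 where that of all genes was 0.058. By sub-group the medians without WT 1 were -0.023 for TOM, -0.11 for TIM23 and its motor, 0.056 for the carrier translocase group, 0.094 for proteases and -0.059 for fusion and fission.

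Over every probe set of the members that passed the filter, 54 of 72 had negative differences (75%, against 53.3% of 23158 named probe sets). The groups did not overlap in the lower direction for 19 of the 72 (26.4%, against 8.43%) and in the higher direction for 1 (1.39%, against 6.31%). Probe sets of one gene share its transcripts and are not independent.

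A wider list of 62 other genes of import, folding, proteolysis, dynamics and cristae held 56 that were tested. Of these 1 was called lower and 0 higher, 47 had negative differences and the median was -0.16. Among all 12946 genes 1.18% were called lower, 55.0% had negative differences and the median was -0.028. The gene that fell was Dnlz, whose protein keeps the motor's Hsp70 soluble. It gave 373.1, 248.1 and 254.6 in WT hearts, against 224.7, 168.7 and 154.2 in KO, without overlap, or -0.63 on the log2 scale (SE 0.175, adjusted p = 0.0319 by limma). Without the library labelled KO 1 it was at -0.77 (adjusted p = 0.00686 by limma). In that setting 2 of the 56 genes of the wider list were called lower, and 208 of all 12946 genes. Dnlz did not pass without WT 1 (-0.45, adjusted p = 0.211), where Esrra did not pass either. Nor did Dnlz pass without KO 2 (-0.58, adjusted p = 0.152) or KO 3 (-0.52, adjusted p = 0.249), or as the mean of its probe sets (-0.37, adjusted p = 0.389).

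By role, the 9 further motor and folding genes were all negative (median -0.20), with the J protein gene Dnajc15 at -0.34. The 9 further proteases and their partners were all negative too (median -0.29), led by Lactb at -0.47 and Afg3l1, an inner membrane protease paralog of Afg3l2, at -0.39. Of 6 processing peptidases 5 were negative (median -0.22), with Mipep, which trims imported precursors, at -0.36 and Pmpcb at -0.25. Of 7 genes listed under intermembrane space import and insertion 6 were negative (median -0.16), with Timmdc1 at -0.37 and Romo1 at -0.26. Timmdc1 was counted in this list although it encodes an assembly factor of complex I. Of 11 further dynamics genes 8 were negative (median -0.11), with Mtfp1, an inner membrane fission protein, at -0.44 and Mief2, a receptor for Drp1, at -0.36. The 8 cristae genes had a median of -0.11, with Chchd3 at -0.22 and Micos13 at -0.16. The 6 genes of outer membrane sorting and insertion had a median of 0.0010, with Mtx1 at 0.22 and Mtch2 at -0.12. Apart from Dnlz none of the genes named from this list passed in the main fit, with limma adjusted p from 0.126 for Mtfp1 to 0.832 for Mtch2.

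**Figure D4:**
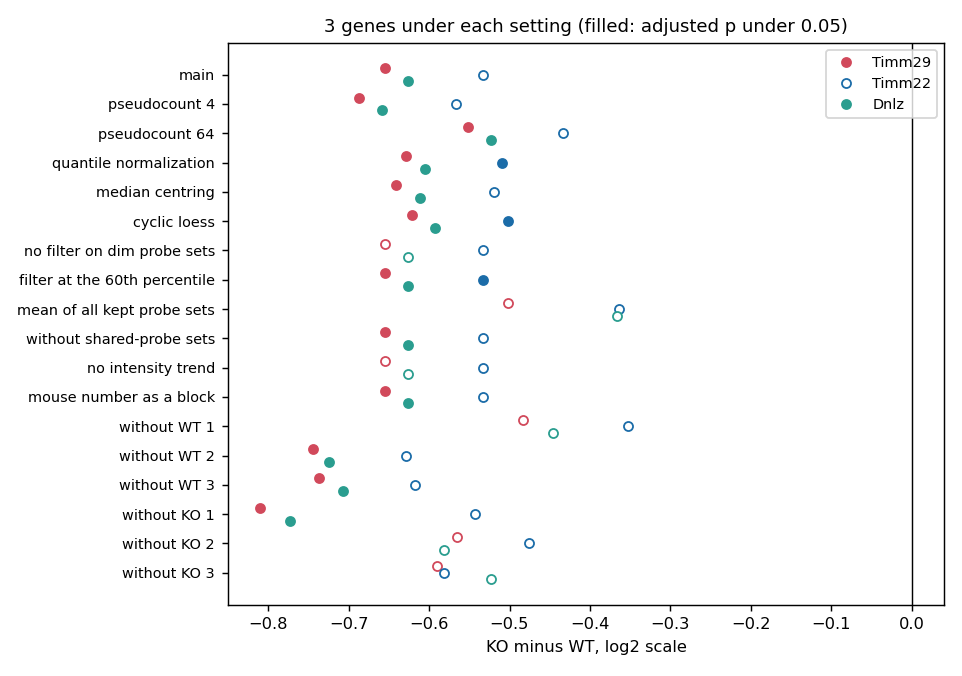
Log2 difference of Timm29, Timm22 and Dnlz under the main setting and each of 17 alternatives, with filled points past an adjusted p of 0.05. All points lie below 0, and Timm29 passed in 11 of the 17 alternatives and Timm22 in 3.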

How the data were processed

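The deposited intensity values are linear MAS5 signals per probe set, per the submitters' processing notes. No source used here gives their scaling target or detection calls, and dim signals may therefore be background. The table held 45099 probe sets, of which 62 controls were left out, 34945 had 1 symbol, 932 several and 9160 none. Signals were used as deposited, as log2(signal + 16), on which folds of dim genes are understated. Probe sets under the 40th percentile of mean log2 (4.59, a signal of 8.17) were dropped, and the brightest remaining set stood for its gene. All 12946 genes entered 1 fit of the 6 arrays in limma 3.58.1 (R 4.3.3; lmFit, then eBayes with trend), and two-sided p-values were adjusted by Benjamini-Hochberg. Variances were drawn strongly to those of genes of like intensity (45.6 prior degrees of freedom). In simulated arrays of these 12946 genes, with 3 against 3, 89% of log2 changes of 1 and 19% of changes of 0.5 were recovered. The simulated noise was independent between genes, with a spread set by intensity alone and no shift of a whole array. WT 1 had such a shift, so the rates may be lower in these hearts.

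The members, the wider list and the markers were chosen with earlier results of these data known. Named were all members, Esrra, and from the wider list the genes past the threshold and the 2 of smallest p in each sub-list. All 35 members matched the GRCm38.p6 gene table. Promoter windows were matched by gene identifier, and Tomm40l, Tomm7, Timm21 and Afg3l2 had none. Mouse numbers in the titles are not said to pair, and no pair of arrays held identical values. Alternatives were pseudocounts of 4 and 64, quantile, median and cyclic loess scaling, no filter or a 60th percentile filter, the mean of probe sets, no shared-probe sets, no variance trend, a replicate block and leaving out each heart. The number of arrays limits the precision.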

Additional observations from a re-analysis of the deposited data

How the results depend on the processing

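Over 17 alternatives no member was called higher, and the members' median stayed negative. Against 231 genes higher and 153 lower, there were 48 and 18 with no filter on dim probe sets, and 114 and 57 with no intensity trend. Leaving out 1 heart gave 105 to 301 higher and 22 to 208 lower, both lowest without WT 1. Members called lower numbered 3 with quantile normalization, 2 with cyclic loess or the 60th percentile filter, and 0 with no filter, the mean of probe sets or no intensity trend. They numbered 0 to 1 with 1 heart left out, where the members' median ran from -0.2396 to -0.025 and the wider list had 0 to 2 lower. The wider list had 0 lower with no filter, the mean of probe sets or no trend. Correlations of deviations between hearts of the same mouse number were 0.027, -0.016 and 0.029, and those between different numbers ran from -0.079 to 0.058. With so few hearts these values cannot settle whether the hearts were paired. A fit with the replicate block called 1 member lower, with 237 genes higher and 175 lower.

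None of the members whose sign turned had passed the test, and the cause was not tested. Lonp1 and Dnm1l turned to 0.0312 and 0.0341 with quantile normalization, 0.0067 and 0.0096 with median centring, and 0.031 and 0.0393 with cyclic loess. With the mean of probe sets Tomm20 was at -0.0775, Timm17b at -0.0657, Timm10b at -0.0016, Yme1l1 at -0.0258 and Dnm1l at 0.0986. Without shared-probe sets Tomm20 was at -0.0915, Tomm7 at 2e-04, Timm10b at -0.0147 and Afg3l2 at 0.1337. With 1 heart left out the values ran from -0.034 to 0.1829 for Tomm20, -0.1548 to 0.0754 for Tomm34, -0.2453 to 0.1223 for Tomm40, -0.0923 to 0.2105 for Timm17b, -0.189 to 0.0429 for Timm21 and -0.0436 to 0.1621 for Timm10b. They ran from -0.1604 to 0.0343 for Afg3l2, -0.1336 to 0.0945 for Lonp1, -0.0324 to 0.2511 for Yme1l1, -0.0483 to 0.0773 for Dnm1l and -0.1167 to 0.2387 for the ratio of Tomm40 over Tomm40l. Dim probe sets limit Timm9, Tomm20l and Timm8a2.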
